A study of Mus musculus with 6 samples.

Results

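The genes described here present antigen on major histocompatibility complex (MHC) class II molecules. They were chosen by symbol: the chains *H2-Aa*, *H2-Ab1*, and *H2-Eb1*, the invariant chain *Cd74*, the peptide-loading genes *H2-DMa*, *H2-DMb1*, *H2-DMb2*, *H2-Oa*, and *H2-Ob*, and the transactivator *Ciita*. All 10 had a row among the 48440 rows of the count table, and all 10 passed the filter on low counts, which left 18593 genes. RNA was sequenced from L3/4 dorsal root ganglia (DRGs) of male wild-type mice after microinjection of a virus into the ganglia of one side. In 3 libraries the virus was AAV5-*Gfp*, an adeno-associated virus that expresses green fluorescent protein. In the other 3 libraries AAV5-*V1* was given mixed with AAV5-*V2*, and these express the transcript variants of the nerve injury-specific long noncoding RNA *NIS-lncRNA* (labelled AAV5-NIS V1 and V2, and called AAV5-*V1+V2* here). The deposited text places tissue collection at 5 weeks and the comparison at 4 weeks after microinjection. Each group received its own virus, so that the preparation and the transcripts it carried cannot be told apart. The age of the mice, the promoter of the viral transgenes, and the number of mice or ganglia behind a library are not given in the sources used here. The p-values therefore measure only the spread between these libraries, which may be technical.

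Class II molecules display peptides from ingested proteins to CD4+ T cells. An α and a β chain pair in the endoplasmic reticulum with the invariant chain CD74, which fills the peptide groove until proteases of the endosome cut it down to a short remnant. H2-DM then exchanges this remnant for antigen peptides, and H2-O restrains H2-DM. The genes are turned on together by CIITA, a coactivator without DNA binding of its own, which joins factors bound to the X and Y boxes of their promoters. B cells, dendritic cells, and activated macrophages are the usual class II-positive cells, and interferon-γ can raise *Ciita* in other cell types.

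In GRCm38, 8 of the 10 genes lie within 224.3 kb of chromosome 17, between the start of *H2-Oa* at 34092340 and the end of *H2-Eb1* at 34316674 (GENCODE M21). *Ciita* lies on chromosome 16 (10480059 to 10528418, plus strand). Promoter sequences of RefSeq (GRCm38.p6, 250 bases before to 50 after the gene start) were at hand for 7 of the 10, without *H2-Ab1*, *Cd74*, and *Ciita*. The stretches that follow show the letters these promoters share. They hold TGATTGG, the core of the Y box, and upstream of it, except in *H2-DMb2*, GNAAC, as in the core of the X box, and both are in capitals.

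*H2-Aa* (chr17:34287857-34287918, minus strand): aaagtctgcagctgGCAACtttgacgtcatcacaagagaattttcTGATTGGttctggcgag
*H2-Eb1* (chr17:34305761-34305822, plus strand): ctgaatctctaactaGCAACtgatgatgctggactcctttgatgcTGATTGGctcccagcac
*H2-DMb1* (chr17:34153083-34153144, plus strand): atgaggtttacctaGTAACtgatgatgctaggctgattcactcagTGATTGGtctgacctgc
*H2-DMb2* (chr17:34145112-34145173, plus strand): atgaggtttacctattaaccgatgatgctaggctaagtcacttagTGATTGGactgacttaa
*H2-Oa* (chr17:34092289-34092350, plus strand): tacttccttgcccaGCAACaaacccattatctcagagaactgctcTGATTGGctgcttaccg
*H2-Ob* (chr17:34238801-34238862, plus strand): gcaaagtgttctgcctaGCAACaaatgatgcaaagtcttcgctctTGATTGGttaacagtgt

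The letters TGATTGG, on either strand, were in the promoters of 6 of the 7 genes, all but *H2-DMa*, and in 7.817% of the 32851 promoters of the RefSeq table. GNAAC followed by TGATTGG after 10 to 40 bases was in 5 of the 7 genes, and in 0.828% of all promoters. Counted by promoter, the 7 genes had 8, of which 6 held TGATTGG and 5 held the pair. Where both were found, 23 to 26 bases lay between them. In *H2-DMb2* the search matched TGATTGG only. TGATTGG began 45 bases upstream of the RefSeq start in *H2-Oa*, 50 in *H2-Aa*, 59 in *H2-Ob*, 61 in *H2-Eb1*, 63 in *H2-DMb1*, and 92 in *H2-DMb2*. The GENCODE M21 starts are the same for *H2-Aa* and *H2-Eb1* and differ for the other 4. Against them TGATTGG began 6 bases upstream in *H2-Oa* and 57 in *H2-Ob*, and lay inside the gene in *H2-DMb1* and *H2-DMb2*, 56 and 1850 bases past the start. The letters of the search were chosen with these sequences in view, and a match is a description of the sequence and no evidence of binding.

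All 10 class II genes were higher with AAV5-*V1+V2* (quasi-likelihood test of edgeR, adjusted p below 0.05). Over all 18593 genes tested, 10.1% were higher by the same rule. The median log2 fold change was 2.83 over the 10 genes, where it was -0.000298 over all genes tested, and it ranged from 1.29 for *H2-DMa* to 4.01 for *H2-Oa*. In each of the 10, every AAV5-*V1+V2* library lay above every AAV5-*Gfp* library, as was also the case for 23.4% of all genes. In these bulk libraries, more class II-positive cells and more RNA per cell cannot be told apart. The calls depended on the AAV5-*Gfp* libraries. Without AAV5-*Gfp* replicate 2, 0 of the 10 were higher (0.0634% of all genes), and without replicate 3 also 0 (0.0792% of all genes), although all 10 had an unadjusted p under 0.05 in each of these edgeR fits. Without AAV5-*Gfp* replicate 1, *H2-Aa*, *H2-Ab1*, *Cd74*, *H2-DMb2*, *H2-Oa*, and *H2-Ob* kept the call (1.35% of all genes). AAV5-*V1+V2* replicate 1 was highest for 9 of the 10 genes. When this library was left out, all 10 were higher and the median log2 fold change was 2.29. The share of all genes that was higher was not counted in that fit.

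**Figure D1:**
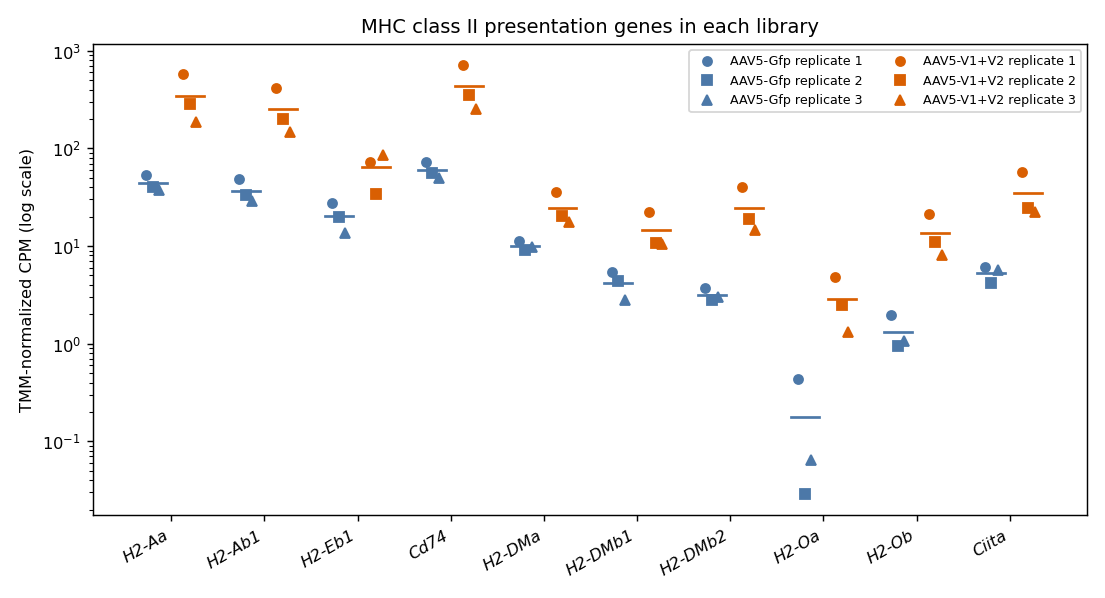
Level of the 10 class II genes in each library, in CPM (read counts scaled to TMM library sizes) on a log scale. Points are libraries, and horizontal lines are group means (n = 3). For each gene the 3 AAV5-V1+V2 libraries sit above the 3 AAV5-Gfp libraries, with AAV5-V1+V2 replicate 1 highest except in H2-Eb1.

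*H2-Aa* encodes the α chain and *H2-Ab1* the β chain of the I-A molecule. *H2-Aa* had 1732, 1407, and 1159 reads after AAV5-*Gfp*, listed by replicate from 1 to 3, and 18852, 9517, and 6387 after AAV5-*V1+V2*. The groups were far apart, and the lowest AAV5-*V1+V2* library was 3.47-fold above the highest AAV5-*Gfp* library. After normalization this was 43.8 ± 8.71 CPM (SD, n = 3) against 348 ± 201 CPM (SD, n = 3), and the fitted log2 fold change was 2.99 with a standard error of 0.41 (adjusted p = 0.0144 by edgeR). For *H2-Ab1* the counts were 1561, 1148, and 901 with AAV5-*Gfp* and 13598, 6660, and 5006 with AAV5-*V1+V2*, listed likewise, and the fitted log2 fold change was 2.78 with a standard error of 0.40 (adjusted p = 0.0144 by edgeR). Both chains had the same order of libraries.

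*H2-Eb1*, the β chain of I-E, went by another pattern within the AAV5-*V1+V2* group. It had 899, 680, and 424 reads with AAV5-*Gfp* and 2396, 1138, and 2933 with AAV5-*V1+V2*. Here replicate 3 was highest, the library that was lowest in 9 of the 10 genes, and the lowest AAV5-*V1+V2* library was only 1.23-fold above the highest AAV5-*Gfp* library. The fitted log2 fold change was 1.66 with a standard error of 0.37 (adjusted p = 0.0302 by edgeR). Relative to *H2-Ab1*, *H2-Eb1* stood at 57.6%, 59.2%, and 47.1% of the *H2-Ab1* reads after AAV5-*Gfp*, and at 17.6%, 17.1%, and 58.6% after AAV5-*V1+V2*, by replicate. Thus AAV5-*V1+V2* replicate 3 fell within the AAV5-*Gfp* range, whereas replicates 1 and 2 fell far below it. The correlation of *H2-Eb1* with the mean of the other 9 genes, in log2 CPM over the 6 libraries, was 0.850, and it was at least 0.968 for each of the others. These libraries share their groups, so that the value describes the pattern and is no test. The α chain that pairs with I-E β was counted under *H2-Ea-ps*, a polymorphic pseudogene in GENCODE M21. This row was chosen after its values were seen, in place of *H2-Ea*. It had 115, 43, and 6 reads with AAV5-*Gfp* and 367, 190, and 103 with AAV5-*V1+V2*, so that the groups overlapped (log2 fold change 1.99, standard error 0.81, adjusted p = 0.132 by edgeR). Its log2 fold change was 3.18 without AAV5-*Gfp* replicate 1 and 1.38 without AAV5-*V1+V2* replicate 1, and it passed in neither fit. The paper describes its virus injections in CD1 mice, an outbred stock, and the labels give no strain. Whether the libraries carry different alleles of these genes was not tested.

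*Cd74*, the invariant chain, was the most abundant of the 10 genes and lies on chromosome 18 (60803848 to 60812652, plus strand, GRCm38). It had 2363, 1937, and 1545 reads with AAV5-*Gfp* and 23308, 11648, and 8703 with AAV5-*V1+V2*. Its mean level was 59.5 ± 12.3 CPM (SD, n = 3) in the controls and 437 ± 240 CPM (SD, n = 3) with the variants, and it rose by 2.88 on the log2 scale (standard error 0.38, adjusted p = 0.0144 by edgeR). *Cd74* kept step with the β chain of I-A, and its reads were 151% to 172% of those of *H2-Ab1* in the AAV5-*Gfp* libraries and 171% to 175% in the AAV5-*V1+V2* libraries. In log2 ratio the groups differed by 0.08 (exact two-sided permutation test, p = 0.2).

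Among the loading genes, *H2-DMa* encodes the α chain of H2-DM, and *H2-DMb1* and *H2-DMb2* encode its alternative β chains. *H2-DMa* had the smallest change, with 366, 313, and 302 reads with AAV5-*Gfp* and 1165, 678, and 611 with AAV5-*V1+V2*. It rose by 1.29 on the log2 scale (standard error 0.26, adjusted p = 0.0233 by edgeR), and the lowest AAV5-*V1+V2* library was 1.57-fold above the highest AAV5-*Gfp* library. Its exons share 360 bases, 10.4% of their length, with *Brd2* on the opposite strand, a gene of general transcription that had 73.5 ± 4.20 CPM (SD, n = 3) against 84.8 ± 9.06 CPM (SD, n = 3). Whether *Brd2* reads were counted on *H2-DMa* was not tested. *H2-DMb1* had 174, 153, and 87 reads with AAV5-*Gfp* and 733, 357, and 357 with AAV5-*V1+V2* (log2 fold change 1.78, standard error 0.36, adjusted p = 0.0239 by edgeR). *H2-DMb2* had 120, 96, and 94 reads against 1317, 636, and 504, and rose by 2.96 on the log2 scale (standard error 0.39, adjusted p = 0.0144 by edgeR). Both genes were apart between groups, and their ratio was as well. *H2-DMb2* had 69.0%, 62.7%, and 108% of the *H2-DMb1* reads after AAV5-*Gfp* and 180%, 178%, and 141% after AAV5-*V1+V2*, by replicate. These closely related genes share sequence, as 22.65% of the 50-base windows of *H2-DMb1* transcripts, and 11.3% of the 100-base windows, also occur in *H2-DMb2*, so that the split of reads between them is uncertain. Summed into 1 gene, an alternative added after the data were seen, they had a log2 fold change of 2.41 (adjusted p = 0.0144 by edgeR).

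H2-O, the regulator of H2-DM, is made mainly by B cells and some dendritic cells. Its genes were the scarcest of the 10 and had the largest changes. *H2-Oa* had 14, 1, and 2 reads after AAV5-*Gfp* and 158, 83, and 45 after AAV5-*V1+V2*, so that the groups were apart. The log2 fold change of *H2-Oa* was 4.01 (standard error 0.79, adjusted p = 0.0231 by edgeR), and it depended on AAV5-*Gfp* replicate 1, without which it was 5.86. It was 3.43 without AAV5-*V1+V2* replicate 1, and the call was missed without AAV5-*V1+V2* replicate 2 (adjusted p = 0.0503, with a range of 7.04e-06 to 0.105 over 15 alternatives). AAV5-*Gfp* replicates 2 and 3 were under a floor of 3 reads a library. Against that floor, which leaves out AAV5-*Gfp* replicate 1, the mean of the AAV5-*V1+V2* libraries was at least 31.4-fold higher. That limit covers counting error only. Over all 3 AAV5-*Gfp* libraries the fitted fold was 16.15, and the lowest AAV5-*V1+V2* library was 3.02-fold above AAV5-*Gfp* replicate 1. The antisense gene *BC051537* shares 321 bases (22.8%) of the *H2-Oa* exons. It had 4, 3, and 5 reads against 23, 15, and 13 reads, in the same order, and its part in the *H2-Oa* counts was not tested. *H2-Ob* had 63, 33, and 33 reads with AAV5-*Gfp* and 703, 370, and 278 with AAV5-*V1+V2*. The lowest AAV5-*V1+V2* library was 4.15-fold above the highest AAV5-*Gfp* library, and *H2-Ob* rose on the log2 scale by 3.35 (standard error 0.44, adjusted p = 0.0144 by edgeR).

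*Ciita*, the transactivator, was also higher in every AAV5-*V1+V2* library. It had 195, 144, and 176 reads with AAV5-*Gfp* and 1906, 807, and 757 with AAV5-*V1+V2*, which is 5.28 ± 0.994 CPM (SD, n = 3) against 34.8 ± 20.1 CPM (SD, n = 3). The fitted log2 fold change was 2.72 with a standard error of 0.40 (adjusted p = 0.0144 by edgeR). *Ciita* reads were 12.5% to 19.5% of the *H2-Ab1* reads in the controls and 12.1% to 15.1% with AAV5-*V1+V2*. These ranges overlapped, and the log2 ratio differed by -0.09 (exact two-sided permutation test, p = 0.8). *Dexi*, which shares 329 bases (3.45%) of the *Ciita* exons on the other strand, rose by 0.84 on the log2 scale (adjusted p = 0.0151 by edgeR).

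Ratios within a library do not depend on the normalization, and 11 pairs were compared. With 3 libraries against 3, the smallest p that an exact permutation test allows is 0.1, which becomes 0.183 after Benjamini-Hochberg adjustment over the 11 pairs. No pair could therefore pass the threshold, and the values serve as a description. In 6 pairs the groups did not overlap. All of these but *H2-DMb2* over *H2-DMb1* hold *H2-DMa*, so that they are not separate observations. How often pairs of other genes were apart was not counted. Of these 6, *H2-DMa* over *H2-Ab1* was lower with AAV5-*V1+V2*, since *H2-DMa* reads were 23.45% to 33.5% of *H2-Ab1* reads in the controls and 8.57% to 12.2% with AAV5-*V1+V2* (difference in log2 ratio -1.44, exact permutation p = 0.1). The other 5 were higher with AAV5-*V1+V2*, with differences in log2 ratio of 0.51 for *H2-DMb1* over *H2-DMa*, 1.60 for *H2-DMb2* over *H2-DMa*, 1.09 for *H2-DMb2* over *H2-DMb1*, 3.21 for *H2-Oa* over *H2-DMa*, and 2.07 for *H2-Ob* over *H2-DMa*. The difference for *H2-Oa* over *H2-DMa* was 4.10 without AAV5-*Gfp* replicate 1 and 2.57 without AAV5-*Gfp* replicate 2, and 2.64 with 2 counts added in place of 0.5. Per read of *H2-DMa*, the share of *H2-Ob* went from between 10.5% and 17.2% to between 45.5% and 60.3%. By contrast, *H2-Ab1* over *H2-Aa*, *Cd74* over *H2-Ab1*, *Ciita* over *H2-Ab1*, *H2-Eb1* over *H2-Ab1*, and *H2-Ob* over *H2-Oa* overlapped between groups. In the first 3 of these the difference in log2 ratio was between -0.18 and 0.08.

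**Figure D2:**
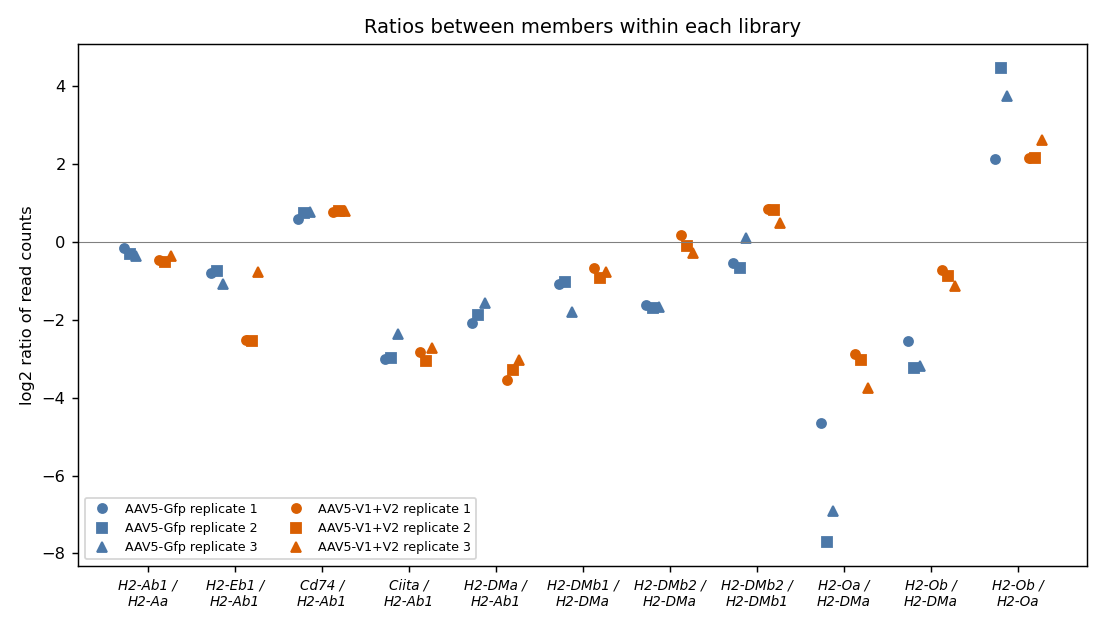
log2 ratio of read counts (0.5 added to each) between pairs of class II genes within each library. Points are libraries. H2-DMa over H2-Ab1 was lower in all AAV5-V1+V2 libraries, the H2-DMb and H2-O ratios to H2-DMa were higher, and H2-Eb1 over H2-Ab1 had AAV5-V1+V2 replicate 3 beside the AAV5-Gfp libraries.

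Levels were set side by side per kilobase of exon, so that genes of different length could be compared. With AAV5-*V1+V2*, *Cd74* came first at 261 ± 143 CPM per kilobase (SD, n = 3), before *H2-Ab1* at 98.6 ± 55.05, *H2-Aa* at 91.7 ± 52.9, and *H2-Eb1* at 33.0 ± 13.75. *H2-DMb2* at 14.1 ± 7.75, *H2-DMb1* at 8.61 ± 4.025, and *H2-DMa* at 7.11 ± 2.76 followed, then *Ciita* at 3.64 ± 2.11, *H2-Ob* at 2.51 ± 1.29, and *H2-Oa* at 2.04 ± 1.26. This order was the same in each of the 3 AAV5-*V1+V2* libraries. Across libraries, which differed in overall level, the ranges of neighbours overlapped except between *H2-Aa* and *H2-Eb1*. With AAV5-*Gfp* the order had *Cd74* at 35.5 ± 7.30, *H2-Ab1* at 14.3 ± 3.99, *H2-Aa* at 11.5 ± 2.29, and *H2-Eb1* at 10.5 ± 3.68 CPM per kilobase (SD, n = 3), and *H2-DMa* at 2.91 ± 0.345 stood above *H2-DMb1* at 2.50 ± 0.782 and *H2-DMb2* at 1.81 ± 0.282. This order of the means over all 10 genes held whole in 0 of the 3 AAV5-*Gfp* libraries.

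Beyond the 10 genes, a list of 30 symbols of the class II pathway was followed, of which 28 had a row and 27 were tested. Of the 27, 14 were higher, where 10.1% of all genes tested were, and 0 were lower, where 5.27% of all genes tested were. The other 13 passed in neither direction, and the median log2 fold change of the 27 was 0.73. At an unadjusted p under 0.05 also 0 were lower. The number higher was 12 with limma-voom, 17 with DESeq2, 18 with total counts, and 18 of 28 without the filter. The share of all genes was not counted in these alternatives. In edgeR's fit without AAV5-*Gfp* replicate 2 or replicate 3, 0 of 28 were higher (0.0634% and 0.0792% of all genes). At an unadjusted p under 0.05, 18 and 19 were higher in these fits, as were 2916 of 18917 and 2932 of 18947 of all genes. Without AAV5-*Gfp* replicate 1, 4 of 28 were higher (1.35% of all genes). *H2-Eb2*, a second I-E-type β gene, had 13, 1, and 6 reads against 244, 116, and 109 (log2 fold change 4.49, standard error 0.63). It was 5.41 without AAV5-*Gfp* replicate 1.

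Of the genes that process antigen and invariant chain, *Ctss*, *Ifi30*, and *Sppl2a* rose, and *Ctsl*, *Ctsb*, and *Lgmn* did not pass. *Ctss*, the protease that trims CD74 in most antigen-presenting cells, had 700, 595, and 370 reads against 8806, 3953, and 2391. The fitted log2 fold change was 3.17 with a standard error of 0.50, and 2.48 without AAV5-*V1+V2* replicate 1. *Ifi30*, a thiol reductase of the endosome, rose by 2.07 on the log2 scale (standard error 0.36), and *Sppl2a*, which cleaves the last membrane fragment of CD74, by 0.41 (standard error 0.11). The broadly expressed lysosomal proteases *Ctsb* (-0.06, standard error 0.08), *Ctsl* (-0.11, standard error 0.08), and *Lgmn* (-0.19, standard error 0.10) had log2 fold changes close to 0. In *Ctsb* and *Ctsl* the groups overlapped, and in *Lgmn* the 3 AAV5-*V1+V2* libraries were the lowest.

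The factors that bind the X and Y boxes had small differences. None of *Rfx5* (log2 fold change 0.59, adjusted p = 0.0520 by edgeR), *Rfxap* (0.15), *Rfxank* (-0.11), *Nfya* (0.29), *Nfyb* (0.07), *Nfyc* (0.14), and *Creb1* (0.27) passed. *Rfx5* passed without AAV5-*V1+V2* replicate 3. In *Rfx5*, *Nfyb*, *Nfyc*, and *Creb1* every AAV5-*V1+V2* library lay above every AAV5-*Gfp* library, as in 23.4% of all genes. In *Rfxap*, *Rfxank*, and *Nfya* the groups overlapped. *March1*, a ubiquitin ligase that lowers surface class II, rose by 1.25 (standard error 0.23), and *Prdm1*, a repressor of *Ciita* in plasma cells, by 1.88 (standard error 0.23), on the log2 scale. Of the interferon-γ pathway, *Ifng* itself had 0, 0, and 3 reads with AAV5-*Gfp* and 25, 9, and 15 with AAV5-*V1+V2*, and was too low to be tested. *Irf1* (1.39, standard error 0.33), *Ifngr1* (0.84, standard error 0.17), and *Ifngr2* (0.38, standard error 0.10) rose on the log2 scale. *Socs1* (1.86), *Jak2* (0.73), and *Jak1* (-0.07) did not pass. *Socs1* was at 1.13 without AAV5-*V1+V2* replicate 1 and passed without replicate 3 of that group, and *Jak2* passed without either of these libraries. All 4 costimulatory genes rose, *Cd40* by 3.06, *Cd80* by 2.40, *Cd86* by 2.02, and *Icosl* by 1.59 on the log2 scale. *Cd40* was at 2.35 without AAV5-*V1+V2* replicate 1.

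**Figure D3:**
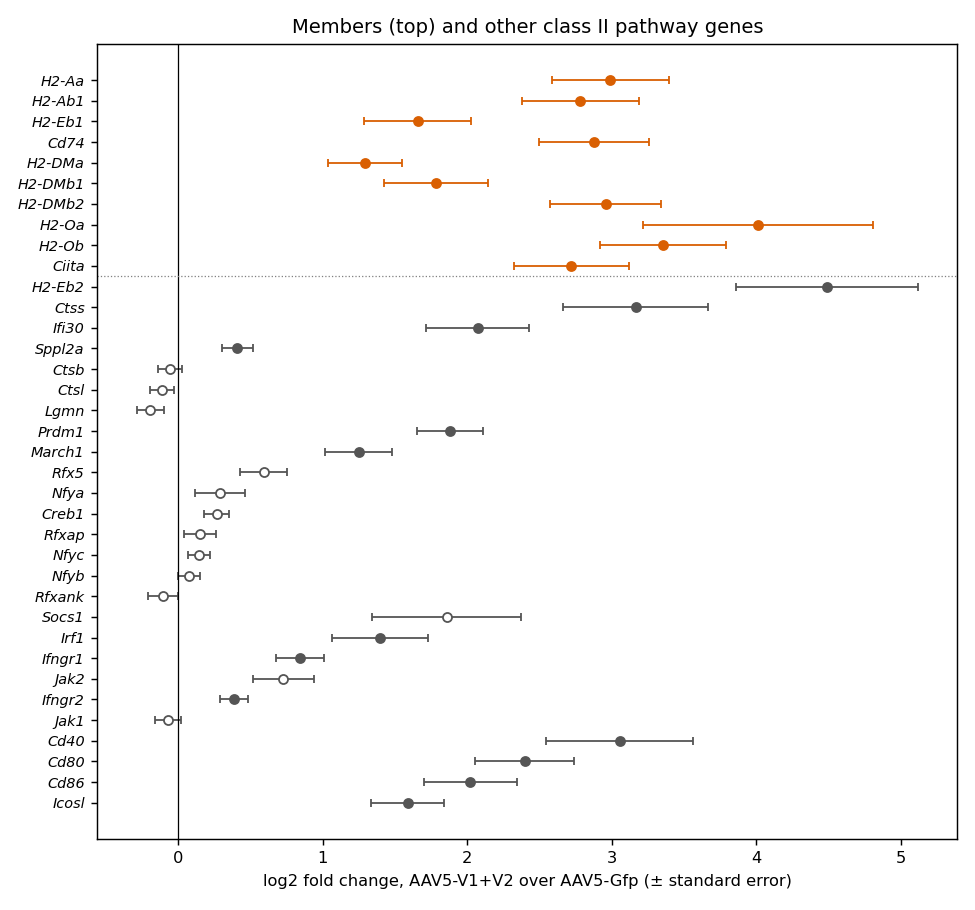
log2 fold change, AAV5-V1+V2 over AAV5-Gfp, with its standard error, for the 10 class II genes above the dotted line (orange) and other pathway genes named in the text below it (grey). Filled points passed the quasi-likelihood test of edgeR at an adjusted p below 0.05. All 10 class II genes are filled, whereas the factors of the X and Y boxes are open.

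Genes of class I presentation, several of which lie among the class II genes on chromosome 17, also differed. *H2-K1* had a log2 fold change of 2.53, *H2-D1* of 2.20, *Nlrc5*, the transactivator of class I, of 2.32, *Tap1* of 2.31, and *Psmb9* of 2.40. Of the list of 10 such genes and neighbours, 9 were higher, where 10.1% of all genes tested were. *Brd2*, within the class II region, was the exception (0.21, standard error 0.09, adjusted p = 0.158 by edgeR). Of these 10, 0 were higher without AAV5-*Gfp* replicate 2 or replicate 3 (0.0634% and 0.0792% of all genes). Without AAV5-*Gfp* replicate 1, 7 were higher (1.35% of all genes).

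Marker lists of cells that carry class II moved in the same direction in these bulk libraries. For comparison, 10.1% of all genes tested were higher. Markers of B cells were higher for 8 of 8 genes, and their summed level was 12.5 to 20.4 CPM in the controls and 96.4 to 238.5 CPM with the variants. For macrophages 10 of 12 were higher (199 to 275 against 560 to 1509 CPM), and for dendritic cells 6 of 8 (55.4 to 62.5 against 88.4 to 135 CPM). The summed level of the 10 class II genes was 151 to 232 CPM against 746 to 1949 CPM. T cell markers, of which 6 of 7 were higher, had 2.74 to 7.87 CPM against 29.97 to 68.1 CPM. Plasma cell markers, of which 3 of 4 were higher, had 14.1 to 19.6 CPM against 193 to 228 CPM. Single genes weighed heavily in some sums. *Jchain* of the plasma cells had 1.04 to 3.87 CPM against 169 to 194 CPM, while *Sdc1* had 12.4 to 15.2 CPM against 18.3 to 24.1 CPM. *Lyz2* of the macrophages had 64.1 to 93.7 CPM against 272 to 989 CPM. In the 5 lists, 0 markers were lower and 0 were at 0 in all libraries. *Cd163* (log2 fold change 0.05) and *Cx3cr1* (0.71) of the macrophages and *Flt3* (0.15) and *Zbtb46* (0.34) of the dendritic cells did not pass. Without AAV5-*Gfp* replicate 2 or replicate 3, 0 markers of B cells, macrophages, dendritic cells, and T cells were higher in edgeR's fit, and 1 of 4 of plasma cells. Of all genes, 0.0634% and 0.0792% were higher in these fits. When AAV5-*Gfp* replicate 1 was left out, 1.35% of all genes were higher. The numbers were then 6 of 8 for B cells, 4 of 12 for macrophages, 3 of 8 for dendritic cells, 7 of 7 for T cells, and 2 of 4 for plasma cells. The part of each cell type in the class II levels was not tested.

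Markers of the resident cells had reads in all libraries, and those of neurons were lower with AAV5-*V1+V2*. Satellite glia (2223 to 2546 against 2187 to 2500 CPM) and Schwann cells (3175 to 3934 against 3386 to 3828 CPM) overlapped between groups, with 0 of 5 and 0 of 6 markers higher or lower. Markers of DRG neurons summed to 5497 to 5809 CPM in the controls and to 3505, 4952, and 4941 CPM by replicate with AAV5-*V1+V2*. All 11 had a negative log2 fold change, from -0.93 to -0.20, with a median of -0.39. The 2 of 11 that passed as lower were *Rbfox3* (-0.93, adjusted p = 0.0256 by edgeR) and *Pou4f1* (-0.43, adjusted p = 0.0376 by edgeR). Of all genes tested, 5.27% were lower. Leaving out AAV5-*Gfp* replicate 1, 2, or 3 left 0 of the 11 that passed. Leaving out AAV5-*V1+V2* replicate 1 gave 5, replicate 2 gave 1, and replicate 3 gave 3. The share of all genes that was lower was not counted in any fit that left out a library. The lowest neuronal and the highest class II sum were thus in the same library, AAV5-*V1+V2* replicate 1. Endothelial markers had 1 of 4 higher, and fibroblast and erythrocyte markers 0 of 3 and 0 of 4, where 10.1% of all genes tested were higher. Still, the fibroblast sum was 582 to 766 CPM in the controls and 832 to 1240 CPM with the variants. Of its genes, *Col1a1* had 144.9 to 200.5 CPM against 240.1 to 610.8 CPM. *Pdgfra* had 34.1 to 44.6 CPM against 50.8 to 61.3 CPM. *Dcn* overlapped between groups, with 388.4 to 552.5 CPM against 540.2 to 592.8 CPM.

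**Figure D4:**
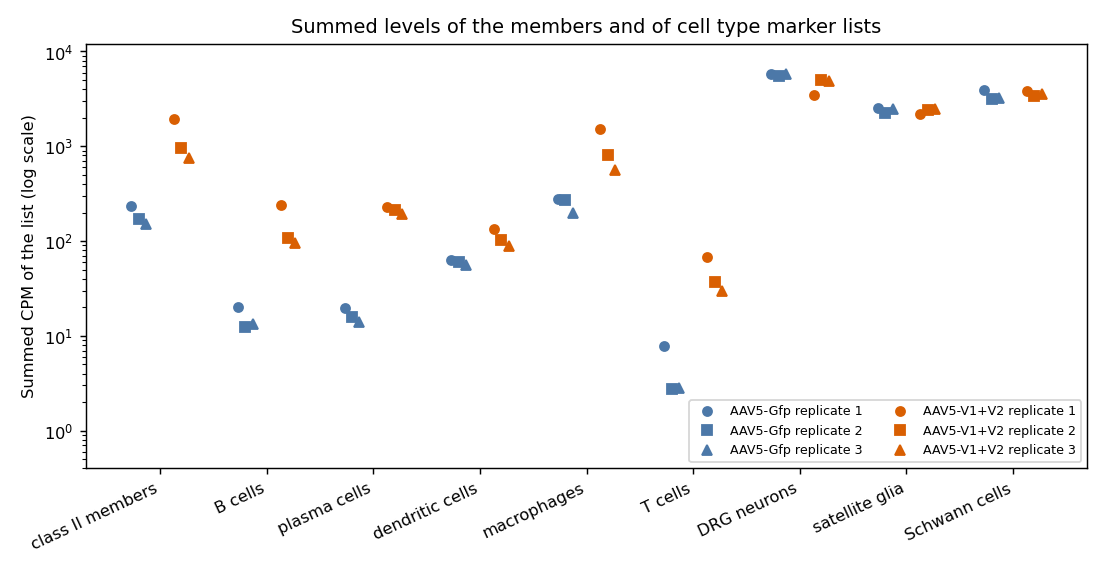
Summed CPM of the 10 class II genes and of cell type marker lists in each library, on a log scale. Points are libraries. The class II genes and the lists of B cells, plasma cells, dendritic cells, macrophages, and T cells are apart between groups, as is that of DRG neurons in the other direction, while satellite glia and Schwann cells overlap.

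Outside the 10 genes, the 5 with the pattern most like theirs, by Pearson's r with their mean log2 CPM over the 6 libraries among 14555 genes, were *C1s1* (0.9995), *Ighd* (0.9994), *Napsa* (0.9990), *Ptprc* (0.9989), and *Tcf7* (0.9989). *C1s1* encodes a complement protease, *Ighd* the constant region of IgD, *Ptprc* the leukocyte antigen CD45, and *Tcf7* a transcription factor of T cells. The points fall into the groups of the study, which raises r for genes that separate them. The order of libraries within groups enters as well. *H2-Eb1*, also apart between groups, had 0.850 with the mean of the other class II genes.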

How the data were processed

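RNA from microinjected DRGs (3 AAV5-*Gfp* libraries, 3 AAV5-*V1+V2* libraries) was sequenced with a stranded total RNA kit. Whole-number read counts for each gene symbol, not normalized, were deposited by the authors in 1 column a library, and the columns were matched to the samples by name. The submitters' processing notes name GRCm38 (mm10). The aligner, the annotation, the use of strand, and the treatment of reads that map to several genes are not given in the sources used here. Total counts were between 32025612 and 34764282 a library, and within groups the chi-square per degree of freedom between libraries was 8.27 to 48.9, so that none was a copy of another.

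Genes were filtered with filterByExpr, normalized by TMM, and tested with edgeR 4.0.16 (glmQLFit and glmQLFTest, R 4.3.3), with Benjamini-Hochberg adjustment over all 18593 genes and a threshold of 0.05. Standard errors were derived from each coefficient and its F statistic. CPM used TMM library sizes. Exon length was the union of exons in GENCODE M21. The calculation was tested on simulated counts. Alternatives were other normalizations, no filter, DESeq2 1.42.0, limma-voom (limma 3.58.1), robust fits, a replicate block, and leaving out each library. The members and lists were chosen with earlier results of these data known. All 10 members are named, as are listed genes of the pathway, of class I, and of cell types. *March1* is also called Marchf1 and was counted once, and *H2-Ea* matched no row. A gene of the pathway list is counted in the totals but not reported here. The promoter letters and the summed *H2-DMb* gene were chosen after seeing the data.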

Additional observations from a re-analysis of the deposited data

How the results depend on the processing

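The class II genes kept their direction in the 15 alternatives tried, of which 1 sums *H2-DMb1* and *H2-DMb2* and so holds 9 genes. With RLE, upper quartile or total-count normalization, without the filter, with DESeq2, limma-voom, and robust empirical Bayes, all 10 were higher, and the median log2 fold change of the 10 was between 2.72 and 2.89. Over all genes tested, deviations from the group mean were weakly correlated between same-numbered libraries (0.036, 0.0658, and 0.107). Between the other pairs the correlations were -0.104 to 0.0433. Of the 10 class II genes, AAV5-*Gfp* replicate 1 was highest of its group in 10 and AAV5-*V1+V2* replicate 1 in 9. Whether same-numbered libraries belong together was not tested. With the replicate block 10 of the 10 genes and 17 other pathway genes were higher, with a median of 2.72. The share of all genes that was higher was counted only in the main fit and in those without an AAV5-*Gfp* library. Leaving out 1 library gave 0 to 10 of the 10 genes and 0 to 17 other pathway genes higher. Without AAV5-*Gfp* replicate 2 or replicate 3 the number was 0 for both lists, and 2916 and 2932 of all genes were higher at an unadjusted p under 0.05. Without AAV5-*Gfp* replicate 1 it was 6 and 4. Fewer libraries were in these fits by construction, and why leaving out an AAV5-*V1+V2* library cost fewer calls was not tested. Summing *H2-DMb1* and *H2-DMb2*, an alternative chosen after seeing the data, left 9 of 9 genes higher. Depth limits *H2-Oa*, *H2-Eb2*, and *Ifng*, each with a library at 3 reads or less.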
